A study of Mus musculus with 69 samples.

Results

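The genes described here are the matrix metalloproteases (Mmp), the Adamts proteases and the tissue inhibitors of metalloproteases (Timp) of the mouse. They were chosen by symbol (Mmp or Adamts followed by a number, with a or b allowed for an Mmp, or Timp1 to Timp4). The rule uses no measured value, though earlier results of these data were known when the family was chosen. The rule found 46 genes, 23 Mmp, 19 Adamts and 4 Timp, among the 55401 gene identifiers of the count tables (49585 in the older pituitary and hypothalamus tables). RNA-seq gene counts were compared in pituitary, hypothalamus and ovary of female C57BL/6J mice that differ in the 3′ UTR of Zeb1, which encodes a transcriptional repressor. WT mice carried the normal gene. Zeb1_200H mice carried 1 allele, and Zeb1_200M mice carried both alleles, with the sites for miR-200a and miR-200b mutated. The change is in the germ line and so is carried by every cell of the mouse, and the mice descend from 2 edited embryonic stem cell clones or their intercrosses. The young cohort was virgin and 8 to 12 weeks old, and its libraries were stranded and depleted of ribosomal RNA. The older cohort was 28 to 36 weeks old, had been through a breeding trial, and gave unstranded poly(A) libraries, so age, breeding history and library chemistry cannot be told apart between cohorts. The study reports that most Zeb1_200M females of that trial had no litters. Pregnancy history may therefore also differ by genotype within the older cohort. Mice of both cohorts were taken at proestrus as judged by vaginal cytology. There were 4 libraries in each group of tissue, cohort and genotype, apart from 3 in young WT pituitary, older Zeb1_200M pituitary and older Zeb1_200M hypothalamus, 69 in all, and the study's methods state that replicates are different mice.

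Mmps are zinc endopeptidases that cut collagens, gelatins, proteoglycans and growth factor precursors outside the cell or at its surface. Adamts enzymes are secreted relatives with thrombospondin repeats that hold them in the matrix, and several of them cut aggrecan, versican or the ends of procollagens. Timps bind the active site of these enzymes and block them. In the ovary matrix is opened and rebuilt with every cycle, when follicles grow, rupture and turn into corpora lutea and when the corpora lutea regress. Adamts1, which cuts versican, and the Timps are known as genes of the ovulating follicle.

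The microRNAs whose sites were mutated are shown because the 2 seeds define the perturbation. They are RefSeq sequences on GRCm38.p6, from chr4:156054911-156054932 and chr4:156055685-156055706 on the minus strand, 5′ to 3′, with the seed (bases 2 to 8) in capitals.
mmu-miR-200a-3p: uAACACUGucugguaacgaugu
mmu-miR-200b-3p: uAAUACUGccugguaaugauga

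The study gives the motif bound by Zeb1 as CAGGTR, where R is A or G. Only the form with G, which reads CACCTG on the other strand, was searched here. RefSeq promoters (250 bases before to 50 after the start, GRCm38.p6) were found for 32 of the 46 genes, and CACCTG or its reverse complement CAGGTG lay in the promoters of 8 of them (25.0%), against 22.6% of 27025 genes. TGTGGT, the core bound by Runx factors, or its reverse complement ACCACA lay in 6 of the 32 (18.8%), against 18.9% of genes. Of the 13 members called changed between Zeb1_200M and WT in ovary or pituitary, 6 had such a promoter and could be searched. The 30 bases around the matches in these 6 are shown on the strand of the gene, with the match in capitals. They lie at chr11:118355501-118355530 (minus strand) for Timp2, and at chr9:7692165-7692194 and chr9:7692283-7692312 (plus strand) for Mmp7. Base positions are counted from the RefSeq start. The gene spans given below come from another annotation and begin further upstream, so the windows of both genes lie inside those spans. A match is a description of letters, and binding was not measured.
Timp2, CAGGTG starting at base -107: agcgcagcgtgcCAGGTGgtgcgggaagcc
Mmp7, CACCTG starting at base -164: ctgctgccaggcCACCTGgccctgccactg
Mmp7, TGTGGT starting at base -46: caatattccacgTGTGGTtttgaatgattt

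Values are CPM, counts divided by the library total and set to a common total, scaled by the trimmed mean of M-values (TMM) across the libraries of a tissue and cohort. In the ovary of young WT mice 38 of the 46 genes reached 1 CPM on average and 23 reached 10 CPM. Set per kb of exon, so that genes can be ranked against each other, the inhibitors led the ovary, with Timp2 at 81.0 ± 7.30 CPM per kb (SD, n = 4) and Timp3 at 65.4 ± 2.86. The leading proteases were the gelatinase Mmp2 (43.6 ± 3.47 CPM per kb), Mmp11 (28.8 ± 2.39), also called stromelysin-3, the membrane-type Mmp14 (27.9 ± 1.66), which activates pro-Mmp2 at the cell surface, and the procollagen protease Adamts2 (25.5 ± 2.59). Neighbours in this order overlapped within their SD from Mmp11 to Adamts2. Summed over each family, WT young ovary held 168 ± 10.7 CPM per kb of Timp, 148 ± 4.74 of Mmp and 118 ± 5.65 of Adamts. The same sums in young WT pituitary were 91.1 ± 5.14, 23.8 ± 0.986 and 27.1 ± 2.31 (n = 3), and in young WT hypothalamus 198 ± 5.73, 34.8 ± 1.48 and 32.4 ± 1.25 (n = 4).

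In young WT mice 34 of 38 members tested differed between ovary and pituitary (edgeR quasi-likelihood test, adjusted p under 0.05), 32 of them higher in ovary, while 68.3% of all genes tested were called in either direction and 35.6% were higher in ovary. Mmp11 was 43.8-fold and Mmp2 18.7-fold higher in ovary (log2 difference 5.45 ± 0.21 SE, adjusted p = 2.54e-12, and 4.22 ± 0.10, adjusted p = 1.99e-14). The 2 members lower in ovary were both membrane-type, Mmp24 (log2 difference -3.02 ± 0.30, adjusted p = 2.51e-07) and Mmp15 (-0.68 ± 0.16, adjusted p = 0.00124). Against hypothalamus 31 of 33 members were called, 20 higher and 11 lower in ovary, and 76.7% of all genes tested were called. Timp2 was lower in ovary than in hypothalamus (log2 difference -1.14 ± 0.058, adjusted p = 1.07e-13), and Mmp24, Mmp16, Mmp17 and Adamts20 were lower too, with log2 differences of -4.62, -1.43, -1.98 and -3.44. Timp1 had 1 count in all over the 4 young WT hypothalamus libraries and was at 13.2 to 22.9 CPM in WT ovary. The plot of WT levels shows these genes in order of their level in ovary.

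**Figure D1:**
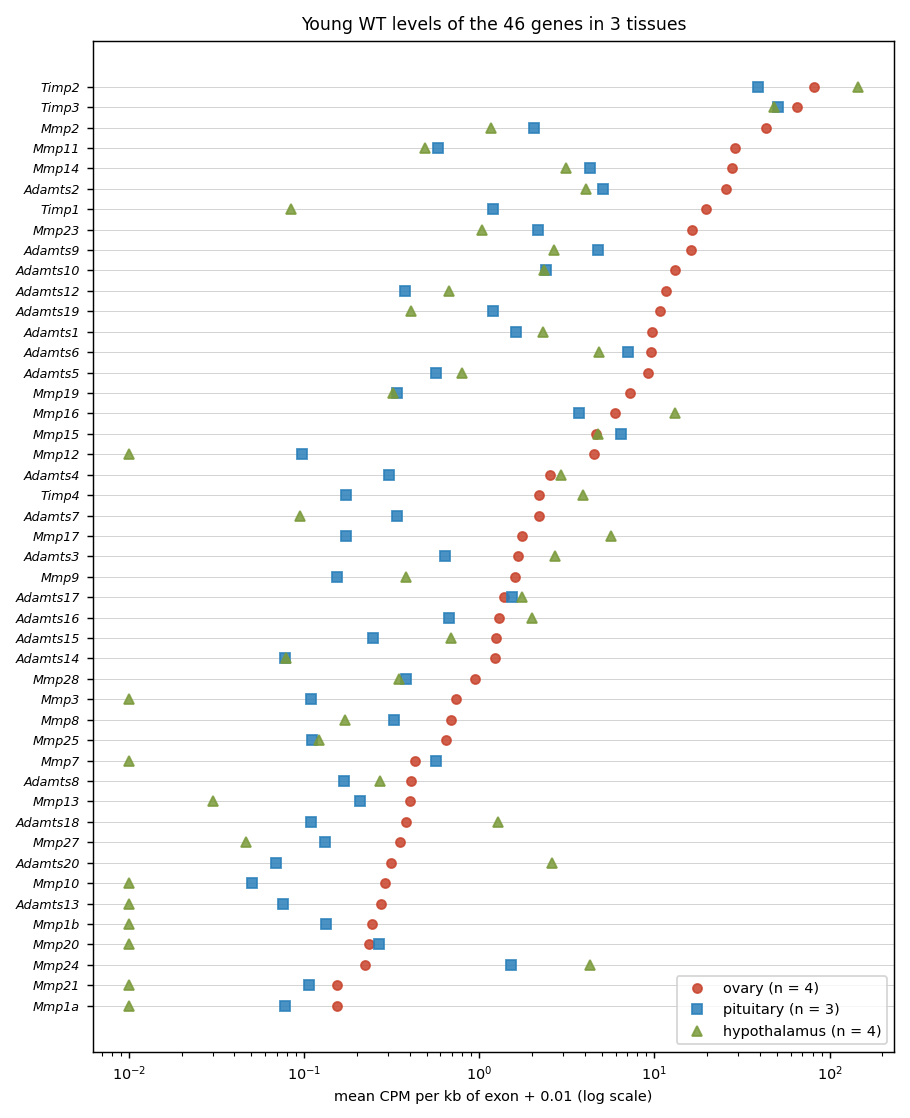
Mean level of each of the 46 genes in young WT ovary (n = 4), pituitary (n = 3) and hypothalamus (n = 4), as CPM per kb of exon plus 0.01 on a log axis, ordered by the level in ovary. Timp2 and Timp3 lead in each tissue, and the Mmp11 and Mmp2 points of ovary lie far to the right of those of pituitary and hypothalamus.

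Total counts per library ranged from 6337205 to 12896366 in young and 7985206 to 14655095 in older ovary, from 7560888 to 13342430 and 4527753 to 12957678 in pituitary, and from 3321845 to 5143128 and 10189605 to 13917738 in hypothalamus. Zeb1 mRNA, the altered gene, was 95.6 ± 2.57 CPM in young WT, 131 ± 4.11 in Zeb1_200H and 138 ± 4.90 in Zeb1_200M pituitary. In young ovary it was 202 ± 18.3, 190 ± 22.3 and 192 ± 13.4 CPM, and in older ovary 91.4 ± 13.4, 81.0 ± 10.5 and 77.8 ± 12.7. Markers of the labelled tissue were present in each tissue, 9 granulosa genes summing to 2549 to 9117 CPM in ovary, 6 hormone and pituitary genes to 65880 to 330000 in pituitary and 6 neuronal genes to 2290 to 3515 in hypothalamus. Some ovary libraries differed in oviduct genes (Ovgp1, Foxj1, Sox17 and Pax8). Their sum was 237 to 615 CPM in young ovary except in Zeb1_200H replicate 1 (26.9) and Zeb1_200M replicate 4 (33.2). In older ovary it was 723 in WT replicate 1, 363 and 3135 in Zeb1_200H replicates 3 and 4, and 328, 3316 and 332 in Zeb1_200M replicates 1, 3 and 4, against 15.5 to 44.5 in the other 6 libraries. Older ovary WT replicate 1 also held 42.0 CPM of the pituitary genes, against 0.455 to 9.23 in the other older ovaries.

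In young ovary 7 of the 38 members tested (18.4%) differed between Zeb1_200M and WT, 3 higher and 4 lower. Among all 19250 genes tested 2.58% were called, 0.878% higher and 1.7% lower. The 3 that rose were Adamts proteases, Adamts5, Adamts6 and Adamts10, by 1.27 to 1.45 times. The 4 that fell were Adamts4, Adamts12, Mmp16 and Timp1, to between 0.511 and 0.786 of WT. With edgeR no gelatinase, collagenase, stromelysin or procollagen Adamts was called. The members' median log2 fold change was -0.10, against 0.01 over all genes tested. The libraries of Zeb1_200M and WT did not overlap for 7 members (18.4%), against 7.29% of all genes. DESeq2, run as an alternative, called 9 members, adding Adamts2 and Timp3, and 886 of the 19250 genes. In a whole ovary a smaller share of the cells that make an RNA and less of it per cell cannot be told apart.

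The proteoglycan-cleaving group, 7 genes, moved both ways. Adamts4 (ENSMUSG00000006403, chr1:171250421-171260637, plus strand of GRCm38), an aggrecanase, was at 12.4, 10.8, 11.6 and 13.7 CPM in the 4 WT ovaries, 7.05, 7.53, 4.30 and 9.64 in Zeb1_200H and 6.60, 7.57, 6.98 and 7.01 in Zeb1_200M. Each Zeb1_200M and each Zeb1_200H library lay below each WT library. The change of Zeb1_200M against WT on the log2 scale was -0.76 ± 0.14 SE (adjusted p = 0.0122), which is 0.589 of WT. Adamts5 (ENSMUSG00000022894, chr16:85856173-85901828, minus strand of GRCm38), the other aggrecanase, went the opposite way. It was at 110, 97.3, 103 and 84.4 CPM in WT and 128, 117, 151 and 136 in Zeb1_200M, with no overlap, while Zeb1_200H spread from 81.0 to 183. Its log2 fold change was 0.46 ± 0.10 (adjusted p = 0.0341), or 1.37 times WT. The other 5 genes of the group were not called, with log2 fold changes from -0.45 (Adamts15) to 0.24 (Adamts20).

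Adamts6 and Adamts10 form a pair of related enzymes that act on fibrillin microfibrils. Adamts6 (ENSMUSG00000046169, chr13:104287835-104496695, plus strand of GRCm38) was at 69.3, 60.6, 67.2 and 57.7 CPM in WT, 118, 82.5, 77.6 and 80.4 in Zeb1_200H and 95.5, 82.5, 93.3 and 93.9 in Zeb1_200M. WT overlapped neither of the mutant groups. Its log2 fold change was 0.54 ± 0.081 (adjusted p = 0.00549), 1.45 times WT. Adamts10 (ENSMUSG00000024299, chr17:33524204-33553782, plus strand of GRCm38) was at 79.9, 77.7, 83.8 and 71.1 CPM in WT, 108, 95.1, 77.8 and 78.4 in Zeb1_200H and 109, 91.8, 95.7 and 96.5 in Zeb1_200M. Its Zeb1_200M libraries lay above WT, and its Zeb1_200H libraries overlapped both. This gave a log2 fold change of 0.35 ± 0.072 (adjusted p = 0.0247), 1.27 times WT. Adamts12 (ENSMUSG00000047497, chr15:11064790-11349231, plus strand of GRCm38), which like Adamts7 can cut cartilage oligomeric matrix protein, fell. It was at 101, 92.7, 108 and 97.3 CPM in WT, 68.0, 91.9, 68.0 and 80.0 in Zeb1_200H and 73.8, 88.6, 67.2 and 80.7 in Zeb1_200M, with WT above every mutant library. The log2 fold change was -0.35 ± 0.074 (adjusted p = 0.0276).

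Among the membrane-type Mmps, which stay anchored to the cell, Mmp16 (ENSMUSG00000028226, chr4:17852893-18119145, plus strand of GRCm38) fell. It was at 32.1, 26.2, 31.4 and 28.8 CPM in WT, 27.3, 31.3, 22.4 and 21.9 in Zeb1_200H and 23.0, 23.6, 17.8 and 21.4 in Zeb1_200M, so that Zeb1_200M lay below WT and Zeb1_200H spanned both. Its log2 fold change was -0.45 ± 0.098 (adjusted p = 0.0291). The 4 other membrane-type genes tested had log2 fold changes from -0.41 (Mmp25) to 0.0043 (Mmp17) and were not called. The gelatinases Mmp2 and Mmp9 were at -0.19 and -0.16.

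Timp1 (ENSMUSG00000001131, chrX:20870166-20874735, plus strand of GRCm38), a secreted inhibitor of most Mmps, was at 22.9, 18.3, 15.5 and 13.2 CPM in WT, 10.5, 9.42, 6.05 and 12.8 in Zeb1_200H and 7.58, 13.4, 6.13 and 7.93 in Zeb1_200M. One Zeb1_200M library (replicate 2) reached the lowest WT library, and Zeb1_200H lay below WT. The log2 fold change of Zeb1_200M was -0.97 ± 0.22 (adjusted p = 0.0348), 0.511 of WT. Timp2 (ENSMUSG00000017466, chr11:118301069-118355740, minus strand of GRCm38), which helps Mmp14 activate pro-Mmp2, was at 305, 269, 334 and 295 CPM in WT and 296, 329, 271 and 305 in Zeb1_200M, with a log2 fold change of 0.01 ± 0.066. Timp3 is the inhibitor that binds to the matrix and also blocks aggrecanases. It was at 322, 300, 319 and 295 CPM in WT and 252, 317, 206 and 212 in Zeb1_200M (log2 fold change -0.31 ± 0.099, adjusted p = 0.124 with edgeR and 0.0414 with DESeq2). Timp4 (ENSMUSG00000030317, chr6:115241892-115252205, minus strand of GRCm38) was at 15.6, 11.6, 6.88 and 17.4 CPM in WT, 0.851, 12.2, 12.0 and 11.5 in Zeb1_200H and 10.38, 14.74, 12.96 and 1.149 in Zeb1_200M. Its 2 low libraries, Zeb1_200H replicate 1 and Zeb1_200M replicate 4, are those with the lowest sums of oviduct genes given above. The part of oviduct tissue in the Timp4 values was not tested.

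**Figure D2:**
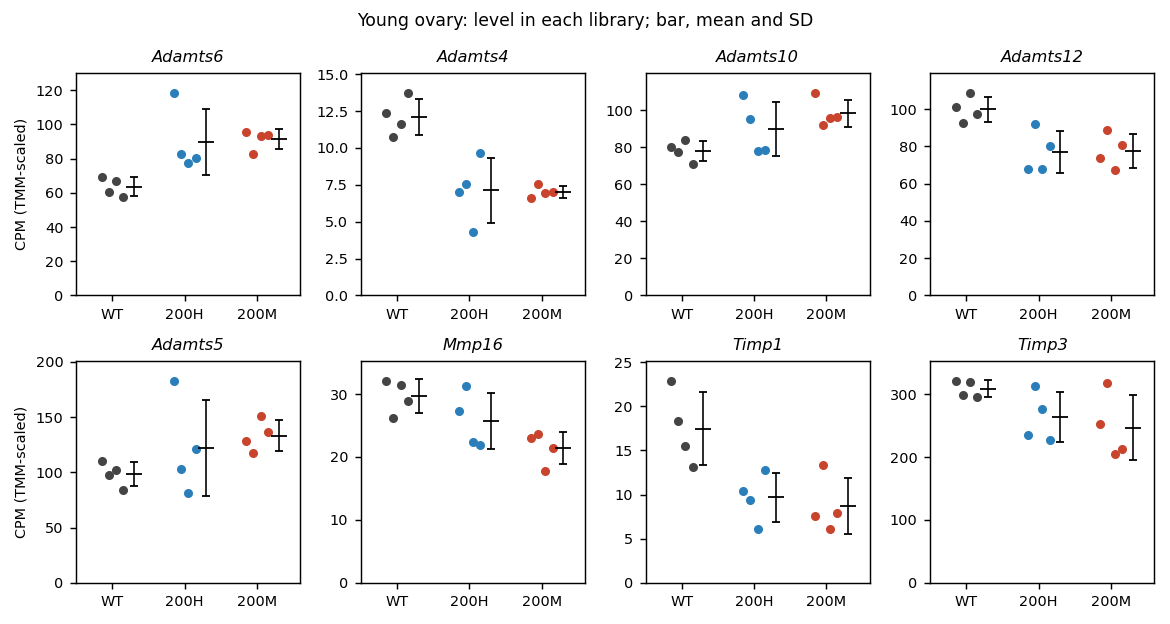
Level of 8 genes in each young ovary library (TMM-scaled CPM, linear axis from 0) in WT, Zeb1_200H and Zeb1_200M, 4 libraries each, with the mean and SD beside the points. Adamts6, Adamts10 and Adamts5 lie higher and Adamts4, Adamts12, Mmp16 and Timp1 lower in Zeb1_200M than in WT, and Timp3, which was not called with edgeR, has 1 of 4 Zeb1_200M libraries within the WT range.

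The number of calls in young ovary rested on single libraries. Leaving out each library in turn gave 1 to 10 members called, with 1 without Zeb1_200M replicate 1, 10 without Zeb1_200M replicate 2, 2 without Zeb1_200M replicate 3 or WT replicate 1, 3 without WT replicate 3 or 4 and 4 without Zeb1_200M replicate 4 or WT replicate 2. Adamts6 stayed called in all 8 of these fits (adjusted p from 0.000218 to 0.0309), and Adamts4 in 7 (0.0564 without Zeb1_200M replicate 1). The highest adjusted p was 0.106 for Adamts10, 0.124 for Adamts12, 0.107 for Mmp16, 0.113 for Adamts5 and 0.127 for Timp1. A single fit of the 3 genotypes called 1 member, Adamts6 (adjusted p = 0.0425, against 1.91e-06 to 0.0309 over the other alternatives and omissions).

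Several markers of ovarian cell types moved beside these genes in young Zeb1_200M. The luteal genes Akr1c18, which degrades progesterone, and Cyp11a1 fell (log2 fold change -3.49 and -0.69), and the list of 9 luteal genes summed to 8746 to 12320 CPM in WT and 6092 to 10810 in Zeb1_200M. The surface epithelium genes Krt7 and Upk1b fell (-1.14 and -1.18), the list of 7 summing to 111 to 143 CPM in WT and 71.0 to 102 in Zeb1_200M. The list of 7 stromal genes summed to 3349 to 4313 CPM in WT and 2422 to 3547 in Zeb1_200M, and the list of 10 macrophage genes to 265 to 395 and 337 to 493, in which Gpnmb rose (1.61) and Mrc1 fell (-0.51). The median log2 fold change of the 10 macrophage genes was -0.22, so the sum and the median went opposite ways. The 3 theca genes summed to 1252 to 1445 CPM in WT and 879 to 1215 in Zeb1_200M without overlap, with Aldh1a1 lower (-0.45) and Cyp17a1 and Insl3 at -0.015 and 0.65. No gene of these lists was at 0 throughout. The part of these differences in the protease values was not tested.

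Substrates and partners of the family were read in the same fit. Of 23 matrix substrates tested in young ovary 1 rose and 1 fell in Zeb1_200M, Reln (log2 fold change 0.50 ± 0.081, adjusted p = 0.00811) and Acan, which encodes aggrecan, the substrate that names the aggrecanases (-1.52 ± 0.26, adjusted p = 0.0112). Among 17 inhibitors and modulators 3 rose, Serpine2, an inhibitor of serine proteases that activate Mmps (0.45 ± 0.075), the Adamts-like Adamtsl2 (0.77 ± 0.17) and Thsd4 (0.40 ± 0.077). Of 9 membrane-anchored Adam proteases 2 fell, Adam12 (-0.52 ± 0.098) and Adam19 (-0.77 ± 0.090). None of 9 activating proteases, such as plasminogen activators, was called (1 with DESeq2). Among all genes tested 2.58% were called. DESeq2 called 4 substrates, 4 inhibitors and modulators and 2 Adams in young ovary, beside 886 of 19250 genes. In older ovary 1 of 22 substrates (Bcan, 0.98 ± 0.19) and 1 of 8 Adams (Adam33, 1.63 ± 0.28) rose, while 2.71% of all genes were called. None of 8 activating proteases (3 with DESeq2) or 14 inhibitors and modulators (0 with DESeq2) was called. DESeq2 called 5 substrates and 2 Adams there, beside 1321 of 17792 genes, so the number of substrates called depended on the tool.

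Heterozygous young ovaries were compared with the same WT libraries. No member of 38 was called in Zeb1_200H, where 1 of 19621 genes (0.0051%) was, while 9 members passed an unadjusted p of 0.05 (7.05% of genes did). DESeq2 called 1 member, Adamts6, and 95 of the 19621 genes. The libraries did not overlap for 5 members (13.2%), against 3.75% of genes. The log2 fold change of Adamts6 was 0.54 ± 0.11 in Zeb1_200H (adjusted p = 0.254 with edgeR and 0.00976 with DESeq2), beside 0.54 in Zeb1_200M. That of Adamts4 was -0.71 ± 0.21, that of Timp1 -0.80 ± 0.23 and that of Adamts12 -0.32 ± 0.098, beside -0.76, -0.97 and -0.35 in Zeb1_200M. Set directly against each other, Zeb1_200M and Zeb1_200H differed for 0 of 39 members (0% of all genes; unadjusted p under 0.05 for 1, Mmp16, and for 3.36% of genes, DESeq2 0). For Adamts6 that difference was 0.0045, with 2 SE reaching from -0.23 to 0.23, and for Adamts4 it was -0.051 (-0.51 to 0.40), so a difference smaller than these intervals was not detectable here.

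In older ovary 2 of the 34 members tested (5.88%) differed between Zeb1_200M and WT, while 2.71% of 17792 genes were called, 1.52% higher and 1.19% lower. Timp1 fell and the matrilysin Mmp7 rose. Timp1 was at 247, 75.8, 93.5 and 65.6 CPM in WT, 140, 157, 42.2 and 37.0 in Zeb1_200H and 21.5, 27.9, 9.65 and 21.7 in Zeb1_200M. All 4 Zeb1_200M libraries lay below the 8 others. The log2 fold change was -2.57 ± 0.50 (adjusted p = 0.0324), 0.168 of WT. Mmp7 (ENSMUSG00000018623, chr9:7692090-7699585, plus strand of GRCm38), the small epithelial protease without a hemopexin domain, was at 0.613, 0.0801, 0.0913 and 0 CPM in WT, 0, 0, 0 and 3.68 in Zeb1_200H and 8.41, 0.959, 3.33 and 3.26 in Zeb1_200M. These levels rest on 9 counts in the 4 WT libraries and 168 in the 4 Zeb1_200M libraries. In Zeb1_200H against WT the gene was too low to be tested, so it entered the test here through Zeb1_200M. WT and Zeb1_200M did not overlap, and the log2 fold change was 4.31 ± 0.91 (adjusted p = 0.0435). The older libraries were counted without strand, so reads from Syn1 and AV064505, which overlap Timp1 and Mmp7 on the opposite strand, cannot be set apart.

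Both calls depended on single libraries. Leaving out each library in turn gave 0 to 4 members called, with 0 without Zeb1_200M replicate 1 or 4 or WT replicate 2 or 3, 1 without Zeb1_200M replicate 2 or 3 or WT replicate 4, and 4 without WT replicate 1. Over these fits the log2 fold change of Timp1 ran from -2.79 to -1.96 (adjusted p 0.0185 to 0.0957) and that of Mmp7 from 3.65 to 5.89 (adjusted p 0.0229 to 0.167). The WT replicate 1 that holds the highest Timp1 is also the WT library with oviduct and pituitary genes. Without the 4 older ovaries in which Foxj1, a gene of ciliated cells, exceeded 50 CPM (WT replicate 1, Zeb1_200H replicates 3 and 4, Zeb1_200M replicate 3), a choice made after the data were seen, 3 members were called, while the number of all genes called went from 482 to 752. Timp1 was then at -1.72 ± 0.18 (adjusted p = 0.00332), Mmp7 at 5.98 ± 1.09 (0.0248) and Adamts12 at -1.37 ± 0.25 (0.0255). That fit still held Zeb1_200M replicate 1 and replicate 4, whose oviduct sums given above exceeded those of the WT libraries kept. The omission therefore did not remove the difference in oviduct genes. The part of oviduct tissue in the Timp1 and Mmp7 values was not tested.

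Members that edgeR did not call in older ovary also spread widely. Mmp12, the macrophage elastase, was at 9.55, 23.0, 45.8 and 55.3 CPM in WT, 47.8, 21.0, 17.0 and 16.1 in Zeb1_200H and 223, 69.4, 46.2 and 160 in Zeb1_200M. Its log2 fold change was 1.93 ± 0.62 (adjusted p = 0.156 with edgeR and 0.0726 with DESeq2). Adamts12 was at 24.0, 49.3, 48.6 and 63.0 CPM in WT and 23.3, 12.7, 20.7 and 25.5 in Zeb1_200M, where 3 of the 4 WT libraries lay above Zeb1_200M (-1.15 ± 0.30, adjusted p = 0.0853). Calls by DESeq2 numbered 6, adding Adamts1, Adamts12, Adamts16 and Mmp16 (log2 fold changes -0.79, -1.16, 1.02 and -1.06), while DESeq2 called 1321 of 17792 genes. The libraries did not overlap for 5 members (14.7%), against 12.3% of all genes. The members' median was -0.03, against 0.04 over all genes. By subfamily the 5 proteoglycan-cleaving Adamts tested ran from -0.78 to 0.15 and the 6 membrane-type Mmps from -1.06 to 0.35.

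The other Timps were not called in older ovary. Timp2 was at 316, 335, 395 and 431 CPM in WT and 530, 249, 359 and 445 in Zeb1_200M, and Timp3 at 376, 330, 381 and 458 in WT and 374, 246, 291 and 373 in Zeb1_200M, with overlap in both. Timp4 was at 29.6, 1.60, 1.00 and 1.64 CPM in WT, 1.48, 3.02, 21.6 and 47.9 in Zeb1_200H and 1.31, 1.20, 74.4 and 1.29 in Zeb1_200M. The 4 libraries above 20 CPM are the 4 with Foxj1 above 50 CPM, and without them the log2 fold change of Timp4 went from 1.17 ± 1.56 to -0.15 ± 0.32. The sum of the 4 Timps was 319 ± 88.9 CPM per kb in WT, 310 ± 95.8 in Zeb1_200H and 201 ± 42.7 in Zeb1_200M (n = 4 each). This sum includes Timp1, which fell, and whose 0.888 kb of exon, the shortest of the 4, gives its CPM the most weight.

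Cell type markers differed in older ovary as well. The list of 10 macrophage genes summed to 418 to 999 CPM in WT, 580 to 1266 in Zeb1_200H and 1670 to 7145 in Zeb1_200M, the highest in Zeb1_200M replicates 1 and 4, which also have the highest Mmp12. Of the 10 genes edgeR called 2, Gpnmb and Lyz2, which rose (log2 fold change 3.72 and 2.88), and DESeq2 called 5. The median log2 fold change of the list was 0.82. The list of 9 luteal genes summed to 13300 to 34840 CPM in WT, 16590 to 26550 in Zeb1_200H and 5354 to 14230 in Zeb1_200M, and Akr1c18, Ptgfr and Star fell (-8.80, -7.37 and -3.77). The part of these differences in the values of Timp1, Mmp7 and Mmp12 was not tested.

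**Figure D3:**
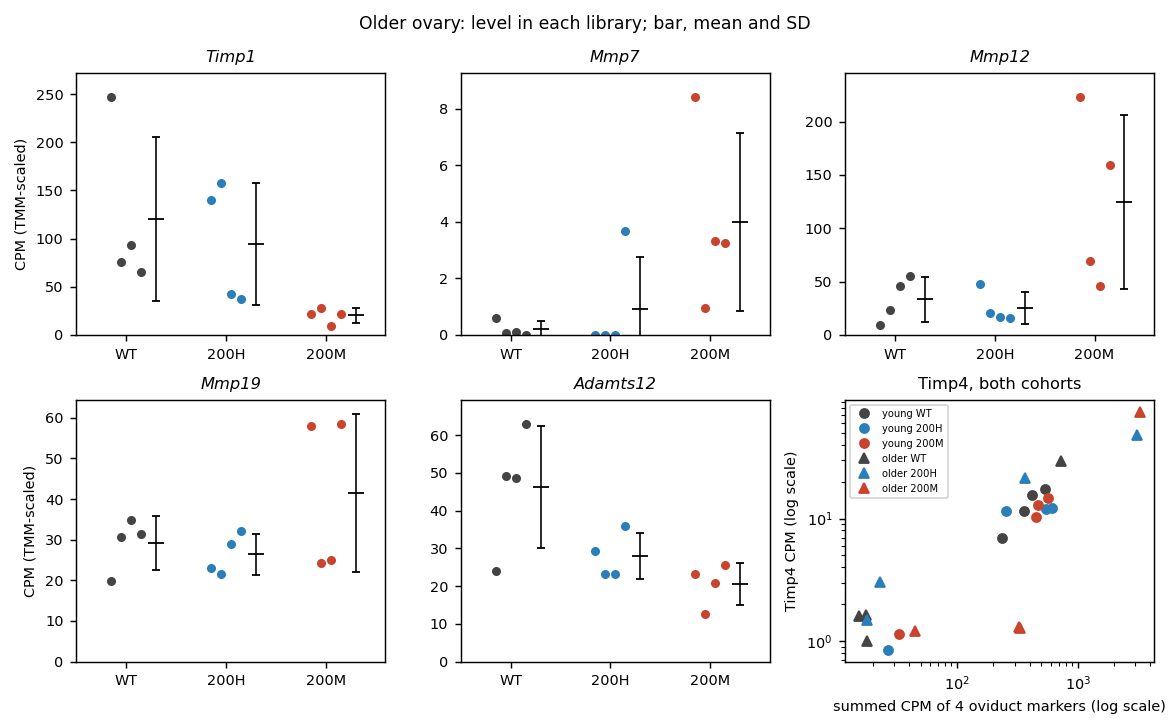
Level of 5 genes in each older ovary library (TMM-scaled CPM, linear axis from 0) in WT, Zeb1_200H and Zeb1_200M, 4 libraries each, with the mean and SD beside the points. The last panel plots Timp4 against the summed CPM of 4 oviduct genes on log axes for the 24 ovary libraries of both cohorts. Timp1 is at most 27.9 CPM in the 4 Zeb1_200M ovaries and at least 37.0 in the others, and Timp4 is above 20 CPM in 4 libraries with an oviduct sum of 363 or more.

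Older heterozygous ovaries, compared with the same WT libraries, showed 0 of 33 members called (0% of all genes, DESeq2 0), with 3 at an unadjusted p under 0.05 (6.59% of genes) and 1 without overlap (4.21% of genes), with Mmp16 at -0.84 ± 0.21, Adamts12 at -0.70 ± 0.27 and Adamts1 at -0.27 ± 0.089 among those that passed unadjusted. Between Zeb1_200M and Zeb1_200H 0 of 35 members were called, while 1.61% of genes were, 0.711% higher and 0.902% lower (unadjusted p under 0.05 for 6 members and 13% of genes). DESeq2 called 3 members there, Mmp12, Mmp14 and Timp1, and 891 of 17855 genes. The libraries did not overlap for 3 members (8.57%), against 9.99% of genes. Timp1 was at -2.23 ± 0.54 in that comparison (adjusted p = 0.0899), and -2.65 ± 0.18 (adjusted p = 0.00169) without the libraries with Foxj1 above 50 CPM, where it was the 1 member and 1 of 151 genes called.

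The 2 cohorts of ovary were set against each other by the interaction of genotype with cohort. None of 40 members was called, while 0.197% of genes were. An unadjusted p under 0.05 was reached by 8 members, and the share of all genes at that threshold was not computed for interactions. DESeq2 called 1 member, Adamts5, and 370 of 21786 genes. Timp1 was lower in Zeb1_200M in both cohorts, with log2 fold changes of -0.97 (young) and -2.57 (older), a difference of -1.63 ± 0.58 (adjusted p = 0.260). Adamts4 was at -0.76 in young and -0.73 in older ovary, Adamts12 at -0.35 and -1.15, Mmp16 at -0.45 and -1.06, and Adamts10 at 0.35 and 0.71, each with 1 sign in both cohorts. Adamts6 and Adamts5, higher in the young at 0.54 and 0.46, were at -0.20 ± 0.26 and -0.75 ± 0.32 in the older, differences of -0.76 ± 0.27 (adjusted p = 0.258) and -1.23 ± 0.34 (adjusted p = 0.151 with edgeR and 0.0294 with DESeq2). Without the libraries with Foxj1 above 50 CPM, where the number of all genes called went from 43 to 332, 2 members were called, Adamts12 (-1.02 ± 0.23, adjusted p = 0.0344) and Mmp7 (7.06 ± 1.65, adjusted p = 0.0416). Mmp7 was too low in young ovary to be tested there, at most 1.52 CPM, so it entered this interaction through the older Zeb1_200M ovaries.

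In young pituitary 3 of 30 members tested (10%) rose in Zeb1_200M and none fell, while 21.5% of genes were called and 11.5% rose. Mmp19 (ENSMUSG00000025355, chr10:128790910-128800824, plus strand of GRCm38), a secreted Mmp of stroma and vessels, was at 1.02, 1.21 and 1.16 CPM in the 3 WT pituitaries, 4.78, 6.35, 3.54 and 5.28 in Zeb1_200H and 4.81, 7.49, 8.17 and 6.05 in Zeb1_200M. Both mutant groups lay above WT. On the log2 scale the change was 2.54 ± 0.28 in Zeb1_200M (adjusted p = 1.19e-05), 5.80 times WT, and 2.12 ± 0.30 in Zeb1_200H (adjusted p = 0.000477), 4.36 times WT. Timp2 was at 130, 146 and 156 CPM in WT, 170, 193, 152 and 194 in Zeb1_200H and 218, 186, 209 and 179 in Zeb1_200M. The Zeb1_200M libraries lay above WT, and 1 of the 4 Zeb1_200H libraries fell within its range (0.45 ± 0.079 in Zeb1_200M, adjusted p = 0.000838). Adamts1 (ENSMUSG00000022893, chr16:85793827-85803113, minus strand of GRCm38), the versican-cleaving protease, was at 6.44, 7.70 and 9.41 CPM in WT and 14.74, 11.74, 10.34 and 12.96 in Zeb1_200M, with no overlap (0.66 ± 0.17, adjusted p = 0.0140, and 0.0764 without WT replicate 1).

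In older pituitary 4 of 26 members (15.4%) were called in Zeb1_200M, 3 higher and 1 lower, while 21.4% of genes were called, 11.7% higher and 9.77% lower. Mmp19 was at 2.90, 2.98, 4.00 and 5.25 CPM in WT, 12.8, 10.3, 9.31 and 10.1 in Zeb1_200H and 19.25, 10.97 and 8.387 in the 3 Zeb1_200M pituitaries. As in the young cohort, the mutant libraries lay above WT (1.77 ± 0.30 in Zeb1_200M, adjusted p = 0.00150, and 1.504 ± 0.21 in Zeb1_200H, adjusted p = 0.000605). Timp2 was at 138, 179, 185 and 203 CPM in WT, 230, 205, 242 and 209 in Zeb1_200H and 248, 252 and 252 in Zeb1_200M, again without overlap of WT and Zeb1_200M (0.52 ± 0.11, adjusted p = 0.00519). Timp4 was at 1.38, 1.75, 1.80 and 2.08 CPM in WT, 5.35, 3.95, 3.96 and 4.88 in Zeb1_200H and 4.19, 3.23 and 3.27 in Zeb1_200M. Its log2 fold change was 1.01 ± 0.26 in Zeb1_200M (adjusted p = 0.0161, 0.0561 with DESeq2 and 0.0765 without Zeb1_200M replicate 1) and 1.37 ± 0.22 in Zeb1_200H (adjusted p = 0.00153). In young pituitary Timp4 was at 0.409 to 1.97 CPM in all 11 libraries. The older pituitary libraries were also counted without strand. Syn2 overlaps Timp4, and Tmem198b and Gm47093 overlap Mmp19, on the opposite strand, so their reads cannot be set apart there. Cep295nl overlaps Timp2 on the same strand, which stranded libraries cannot set apart either.

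Adamts19, a family member with few known substrates, fell in older Zeb1_200M pituitary. It was at 7.73, 20.7, 27.2 and 21.2 CPM in WT, 15.1, 5.22, 14.7 and 10.5 in Zeb1_200H and 6.91, 6.19 and 6.75 in Zeb1_200M. WT replicate 1 stood close to Zeb1_200M and the other 3 WT libraries lay far above it (-1.52 ± 0.34, adjusted p = 0.00770). In young pituitary it was at 4.91 to 6.93 CPM in WT and 5.06 to 7.24 in Zeb1_200M. Mmp11, which Chchd10 overlaps on the opposite strand in these unstranded counts, was called in older Zeb1_200H. It was at 2.346, 2.365, 3.002 and 3.392 CPM in WT, 4.42, 5.76, 4.56 and 4.24 in Zeb1_200H and 4.39, 3.48 and 3.68 in Zeb1_200M. WT lay below both mutant groups (0.79 ± 0.21 in Zeb1_200H, adjusted p = 0.0299, rising to between 0.0571 and 0.109 without Zeb1_200H replicate 2 or 3 or WT replicate 1 or 2).

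**Figure D4:**
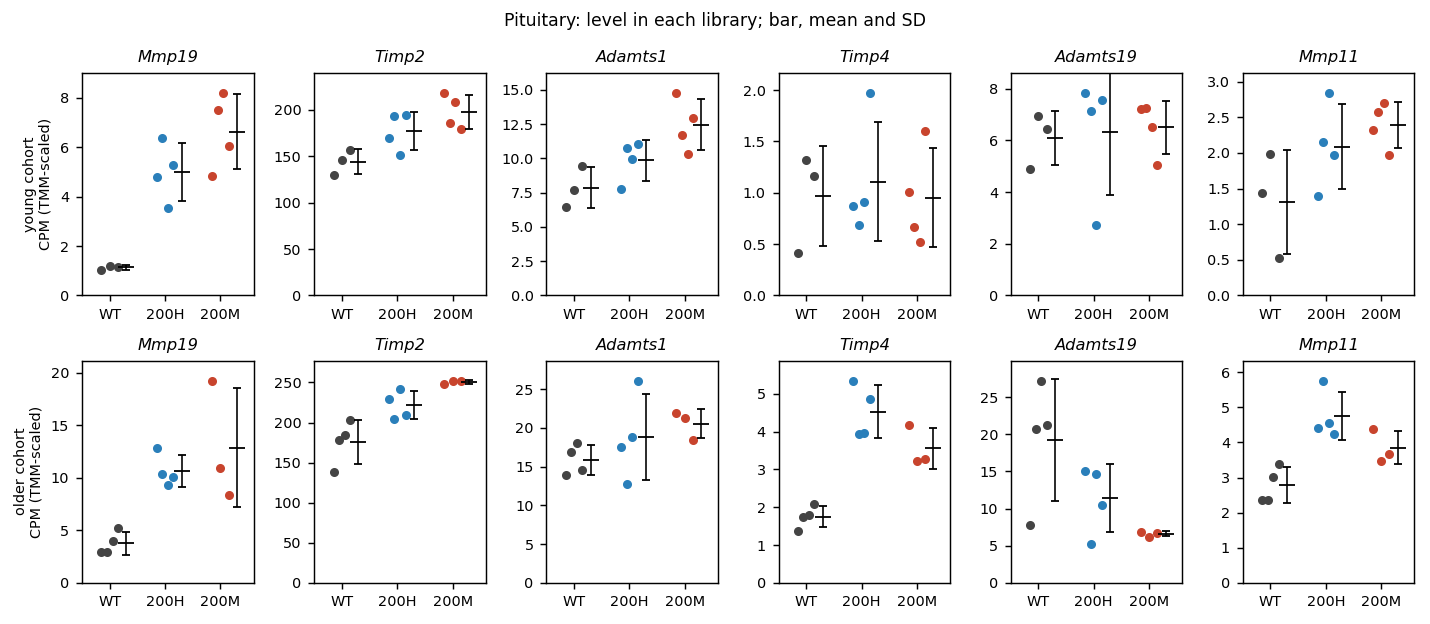
Level of 6 genes in each pituitary library (TMM-scaled CPM, linear axes from 0) of the young cohort (top; 3 WT, 4 Zeb1_200H and 4 Zeb1_200M) and the older cohort (bottom; 4 WT, 4 Zeb1_200H and 3 Zeb1_200M), with the mean and SD beside the points. Mmp19 and Timp2 lie higher in Zeb1_200M than in WT in both cohorts, and Adamts19 lies lower in Zeb1_200M in the older cohort.

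In pituitary the comparisons of Zeb1_200H and Zeb1_200M share their WT libraries. In young Zeb1_200H 1 of 28 members was called, Mmp19, while 12.3% of genes were (6.56% higher and 5.72% lower), and in older Zeb1_200H 3 of 27 were (11.1%), Mmp19, Timp4 and Mmp11, while 12.2% of genes were. Between Zeb1_200M and Zeb1_200H 0 of 29 young members and 0 of 27 older members were called by edgeR or DESeq2, with 2 and 4 at an unadjusted p under 0.05 (5.92% and 10.6% of genes), while 0.0383% (0.0164% higher and 0.0219% lower) and 0.121% of genes were called. Scaling by total counts alone moved the median log2 fold change of all genes by 0.12 in young and 0.18 in older Zeb1_200M pituitary, and the calls in older Zeb1_200M from 3 higher and 1 lower to 11 higher and 1 lower. The pituitary list summed to 160800 to 184400 CPM in young WT and 65880 to 88390 in young Zeb1_200M, and to 286700 to 330000 and 163300 to 208100 in the older cohort. The list of 7 stromal genes summed to 551 to 673 CPM in young WT and 309 to 420 in young Zeb1_200M, and to 676 to 1027 and 448 to 565 in the older cohort, while its median log2 fold change was positive, 0.19 (young) and 0.46 (older). Col1a2 fell in both (-1.68 and -1.24), Dcn rose in both (0.64 and 0.91) and Pdgfra rose in the older (0.83). The macrophage list summed to 45.2 to 55.2 CPM in young WT, 65.8 to 80.4 in young Zeb1_200M, 107 to 141 in older WT and 149 to 218 in older Zeb1_200M. The part of these differences in the pituitary values was not tested. Among related genes in Zeb1_200M, 8 of 17 inhibitors and modulators rose and 2 fell in the young, and 8 of 16 rose and 2 fell in the older, beside 11.5% higher and 10% lower among all genes of young pituitary and 11.7% and 9.77% of older pituitary. Substrates moved both ways, 5 of 21 higher and 3 lower in young Zeb1_200M, 3 of 21 higher and 2 lower in older.

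The effect of Zeb1_200M was then compared between ovary and pituitary within each cohort. Libraries of the 2 tissues may come from the same mice, and the fit treated them as independent. In the young cohort 6 of 40 members differed (15%), while 10.1% of genes did. Mmp19 was at -0.40 in ovary and 2.54 in pituitary (difference -2.94 ± 0.32, adjusted p = 3.78e-06). Adamts6 was at 0.54 and -0.07 (difference 0.60 ± 0.13, adjusted p = 0.00498). Both of these held without any 1 library. Timp2 was at 0.01 and 0.45, Adamts1 at -0.16 and 0.66, Mmp16 at -0.45 and 0.11 and Adamts15 at -0.45 and 0.79, with differences of -0.44 ± 0.11, -0.83 ± 0.22, -0.57 ± 0.16 and -1.25 ± 0.35 (adjusted p from 0.0149 to 0.0270). These 4 were lost without young pituitary WT replicate 1, where 2 members remained called. Mmp16 was also lost without young ovary Zeb1_200M replicate 3, young ovary WT replicate 1 or young pituitary Zeb1_200M replicate 1 (adjusted p up to 0.0837), and Adamts15 without young ovary WT replicate 4, young pituitary Zeb1_200M replicate 3 or young pituitary WT replicate 2 (up to 0.0697). Over single omissions the count ran from 2 to 8. In the older cohort 3 of 35 members differed (8.57%), while 5.77% of genes did. They were Mmp7 (6.48 ± 1.38, adjusted p = 0.0150, and 0.0528 without older pituitary Zeb1_200M replicate 2), Adamts1 (-1.19 ± 0.29, adjusted p = 0.0286) and Adamts19 (1.55 ± 0.40, adjusted p = 0.0352). Mmp7 was too low in older pituitary to be tested there, at most 2.40 CPM. It entered this test through the older Zeb1_200M ovaries in which it is high, so its call is not separate evidence of a tissue difference. The count ran from 0 to 6 over single omissions, with 0 without older pituitary Zeb1_200M replicate 2, 1 without older ovary WT replicate 2, older pituitary Zeb1_200M replicate 3 or WT replicate 4, 5 without older ovary Zeb1_200M replicate 3 and 6 without older ovary WT replicate 1. Over the 15 omissions Adamts1 lost its call in 7 (adjusted p up to 0.0798) and Adamts19 in 10 (up to 0.108).

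In hypothalamus no member was called with edgeR in any of the 6 genotype comparisons. In young Zeb1_200M against WT 23 members were tested and ran from -0.45 to 0.49 on the log2 scale. At an unadjusted p under 0.05 there were 0 members (5.65% of genes), and 0 were called with DESeq2, while edgeR called 0.02% of genes. In older Zeb1_200M against WT 30 members were tested and ran from -1.32 to 0.45, with 4 at an unadjusted p under 0.05 (18.1% of genes) and 1 with DESeq2, which called 634 genes, while edgeR called 0.00622% of 16067 genes. That 1 was Timp4, the Timp best known from brain and heart, at 52.3 to 58.7 CPM in 4 WT, 53.4 to 57.0 in 4 Zeb1_200H and 67.0 to 73.0 in 3 Zeb1_200M libraries. Reads from Syn2, which overlaps Timp4 on the opposite strand, cannot be set apart in these unstranded counts. The Zeb1_200M libraries lay above the others (0.34 ± 0.084 against WT, adjusted p = 0.112 with edgeR and 0.0183 with DESeq2). Zeb1_200M and WT did not overlap for 4 members (13.3%), against 15.8% of genes, and Zeb1_200M and Zeb1_200H for 9 (29%), against 16.3%. Against Zeb1_200H it was at 0.36 ± 0.070 (adjusted p = 0.140 with edgeR and 0.00740 with DESeq2), the 1 member among 687 genes called by DESeq2 there, with 6 of 31 members and 19.5% of genes at an unadjusted p under 0.05 and 0% of 16156 genes called by edgeR. The other comparisons in hypothalamus had 0 calls with DESeq2 and 1 to 3 members at an unadjusted p under 0.05. Of all genes 3.93% (young Zeb1_200H), 4.6% (young Zeb1_200M against Zeb1_200H) and 2.8% (older Zeb1_200H) passed unadjusted. At the adjusted threshold edgeR called 0.0202%, 0% and 0% of genes in the same order. Timp2, the leading Timp there, was at 524 to 556 CPM in young WT and 521 to 550 in young Zeb1_200M.

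**Figure D5:**
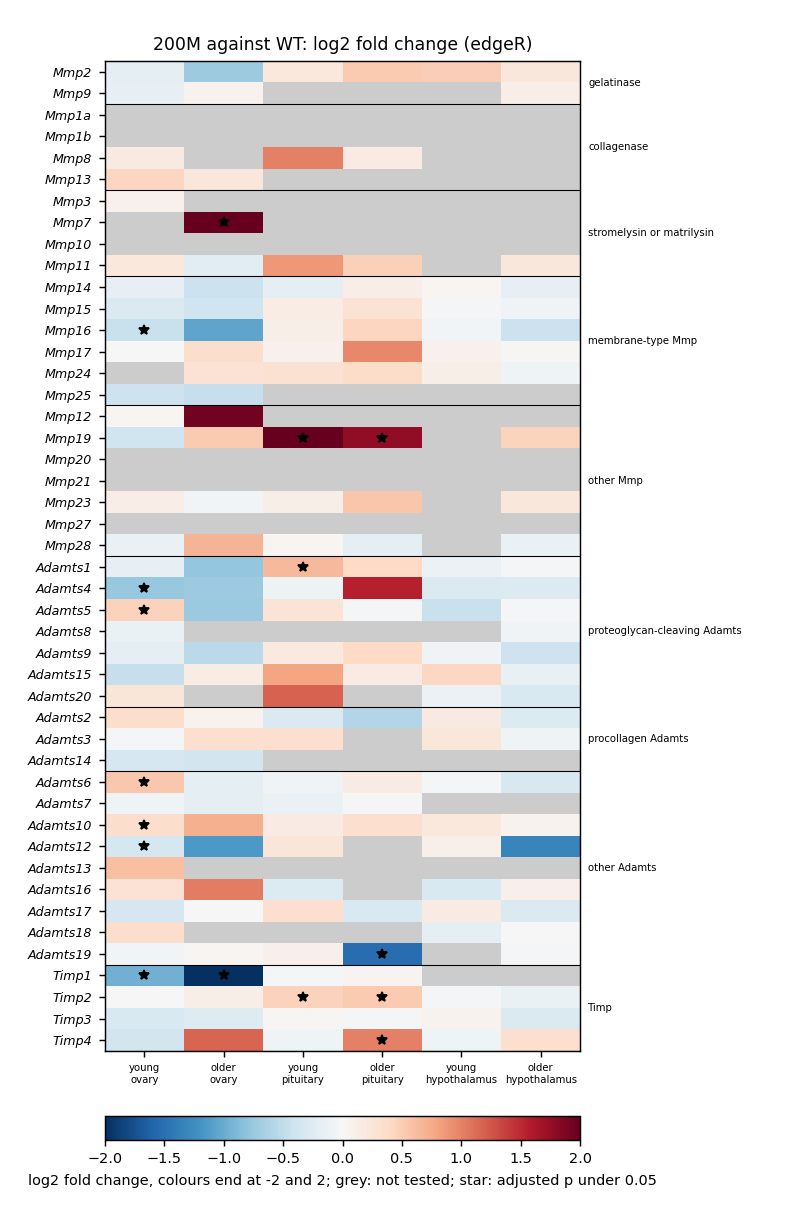
Log2 fold change of Zeb1_200M against WT for each member in the 6 combinations of tissue and cohort, with colours ending at -2 and 2, grey for genes too low to be tested and a star for an adjusted p under 0.05 (edgeR). Stars fall on 7 genes in young ovary, 2 in older ovary, 3 in young and 4 in older pituitary and none in hypothalamus.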

How the data were processed

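Gene counts were made by the authors from reads aligned with STAR 2.7.1a to mm10 (GRCm38). The deposited counts, per the labels and the study's methods, came from featureCounts with GENCODE vM25 (young libraries stranded, older ovary unstranded) or from htseq-count 0.9.1 with Ensembl annotation, unstranded (older pituitary and hypothalamus). The deposited tables also hold the authors' DESeq2 comparisons (log2 fold changes, p-values and adjusted p-values), which were not used, and 141 further library columns, most of them counts that the authors had normalized, were not used.

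Each pair of groups was fitted alone with edgeR 4.0.16 (R 4.3.3): filterByExpr, TMM scaling, the quasi-likelihood F test and Benjamini-Hochberg adjustment over all genes tested, with calls at an adjusted p under 0.05. The SE is the log2 fold change divided by the square root of F. DESeq2 1.42.0 was an alternative, as were other scalings, no filter, a joint fit of genotypes, a replicate block and leaving out each library. Scripts were tested on simulated data. Called members of Zeb1_200M against WT, the Timps in ovary, members called in other genotype comparisons and in interactions were named with their values. Further genes were named as values beside these, some chosen after their values were seen. The members and lists were chosen with earlier results of these data known. Same-numbered libraries were not paired: in 0 of 18 comparisons of genotypes within a tissue did every pair of deviations correlate above 0.1. Pairing between tissues was not examined. Ovary, pituitary and hypothalamus libraries of a cohort may share mice, and all comparisons between tissues treated them as independent. One young WT pituitary column could be matched to its group and not to a sample number.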

Additional observations from a re-analysis of the deposited data

Results flagged for a closer look

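In 7 of the 61 groups of 4 libraries tested 1 library stood apart from the other 3 by Dixon's test, of which chance gives about 1 in 20. In young ovary they were Adamts6 in Zeb1_200H replicate 1 (118.1 CPM, the others 77.64 to 82.45) and Timp4 in the same library (0.8505 CPM, the others 11.46 to 12.24). In older ovary they were Mmp7 in WT replicate 1 (0.613 CPM, the others 0 to 0.09126) and in Zeb1_200H replicate 4 (3.682 CPM, the others 0), Timp1 in WT replicate 1 (247.0 CPM, the others 65.59 to 93.54), and Timp4 in WT replicate 1 (29.6 CPM, the others 1.004 to 1.642) and in Zeb1_200M replicate 3 (74.35 CPM, the others 1.199 to 1.31).

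The effect of Zeb1_200M differed between tissues in a test of the difference for 9 results, each given as ovary minus pituitary on the log2 scale. In the young cohort the differences were -2.94 for Mmp19, 0.60 for Adamts6, -0.44 for Timp2, -0.83 for Adamts1, -0.57 for Mmp16 and -1.25 for Adamts15. In the older cohort they were 6.48 for Mmp7, which was too low to be tested in pituitary alone, -1.19 for Adamts1 and 1.55 for Adamts19.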

How the results depend on the processing

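Over the alternatives other than leaving out a library, 436 of 460 values of named members kept their direction and side of the threshold. No called value changed sign. Of values that were not called, Timp4 in older ovary Zeb1_200M against WT went from 1.17 to -0.13 with the replicate block and -0.15 without the older ovaries with Foxj1 above 50 CPM, and Timp2 in young ovary from 0.014 to -0.0005 with every gene with at least 1 count. Counts of members called moved by over 1.5 times in 28 of 133. DESeq2 called 1 member for the interaction of cohort and Zeb1_200M in ovary, 8 for the older ovary minus pituitary (beside 1693 of 18736 genes), 6 in older ovary Zeb1_200M against WT and 3 against Zeb1_200H, 1 in young ovary Zeb1_200H against WT, and 1 each in older hypothalamus Zeb1_200M against WT and against Zeb1_200H. Testing every gene with at least 1 count gave 3 in older hypothalamus Zeb1_200M against Zeb1_200H, 1 in older hypothalamus Zeb1_200M against WT, 6 in older pituitary Zeb1_200H against WT, 3 in older pituitary Zeb1_200M against Zeb1_200H, 8 in older pituitary Zeb1_200M against WT, 3 in young ovary Zeb1_200H against WT, 2 in young pituitary Zeb1_200H against WT and 1 in young pituitary Zeb1_200M against Zeb1_200H. Scaling by total counts alone gave 6 for the older ovary minus pituitary, 6 in older pituitary Zeb1_200H against WT, 12 in older pituitary Zeb1_200M against WT, 2 in young pituitary Zeb1_200H against WT and 5 in young pituitary Zeb1_200M against WT. Fitting the 3 genotypes together gave 1 in young ovary Zeb1_200M against WT. Leaving out the older ovaries with Foxj1 above 50 CPM, chosen after seeing the data, gave 2 for the interaction of cohort and Zeb1_200M, 8 for the older ovary minus pituitary and 1 in older ovary Zeb1_200M against Zeb1_200H. The cause of these shifts was not tested.

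Leaving out 1 library at a time gave 0 to 6 calls for the older and 2 to 8 for the young ovary minus pituitary, 0 to 4 in older ovary Zeb1_200M against WT and 0 to 1 against Zeb1_200H, 1 to 10 in young ovary Zeb1_200M against WT, 3 to 7 in older pituitary Zeb1_200M against WT and 0 to 2 against Zeb1_200H, 2 to 4 in older pituitary Zeb1_200H against WT, 1 to 2 in young pituitary Zeb1_200H against WT and 2 to 4 in young pituitary Zeb1_200M against WT, 30 to 35 for young WT ovary against pituitary and 30 to 33 against hypothalamus.

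With the replicate number as a block the count was 1 in young ovary and 1 in older ovary Zeb1_200M against WT, 7 in older pituitary Zeb1_200M against WT and 3 in young pituitary Zeb1_200H against WT. The numbers did not pair the samples (correlations of deviations from -0.615 to 0.423), and in 0 comparisons did every library correlate best with its own number. With 3 or 4 libraries a group and under 10 counts of Mmp7 over the older WT ovaries, small differences were not detectable at this depth.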
